A study of Homo sapiens with 4 samples.

Results

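The guanylate-binding proteins GBP1, GBP2, GBP3, GBP4 and GBP5 were measured by RNA-seq in RD and JR1 cells, established lines of fusion-negative rhabdomyosarcoma, a childhood tumour of the muscle lineage. These 5 genes were taken by their symbols out of 39323 genes listed in each library. GBP2 was singled out with its values already known, because it was higher after SKP2 depletion in both lines while most interferon-stimulated genes were lower, so it was chosen by its TPM in these libraries and its change is described and not tested. The other 4 genes stand beside it as its family.

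Each line was infected with a lentivirus that carried either a non-targeting hairpin (shSCR, genotype labelled WT) or a hairpin against SKP2 (genotype labelled SKP2 knockdown), labelled shSKP2 and named shSKP2.2, 1 of a pair of hairpins, in the text of the study. SKP2 is the substrate-binding subunit of an SCF ubiquitin ligase. Every library therefore came from cells that carried a lentiviral vector, with a single hairpin against SKP2. Poly-A RNA of each line and condition was sequenced as 1 library, 4 in all, so replicates are lacking for every difference and p-values are not given.

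The guanylate-binding proteins are large GTPases of the dynamin superfamily. Interferon gamma is their classical inducer: its receptor acts through the kinases JAK1 and JAK2 and raises IRF1, a factor that acts on GBP promoters. The proteins assemble on the vacuoles of parasites and on the surface of bacteria in the cytosol, where GBP1 binds lipopolysaccharide and helps to recruit caspase-4. GBP1, GBP2 and GBP5 carry a C-terminal lipid anchor, GBP2 and GBP5 restrain the protease furin, and GBP5 promotes assembly of the NLRP3 inflammasome.

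Levels are TPM, each library's transcript abundances corrected for transcript length and scaled to a fixed total. A change is the log2 (TPM + 1) with shSKP2 minus that with shSCR in the same line. The added 1 TPM understates the changes of genes at such low levels. A gene was tested, here meaning set against a limit of 1 on the log2 scale, when its mean was at least 1 TPM over the 4 libraries, and 12985 genes were. "Rose" and "fell" are used only past this limit. The depth is unknown, since TPM hold no counts of reads, and the deposited values have steps of 0.01 TPM. SKP2 went from 92.8 to 7.40 TPM in the RD pair and from 46.5 to 2.72 TPM in the JR1 pair. Short structural RNA genes took 58.6% to 72.1% of the TPM of a library, with the larger share in shSKP2 in each line. The median change over the tested genes was -0.27 for RD and -0.21 for JR1, and 0.12 and 0.01 once these RNA genes were removed and TPM rescaled. How far these RNAs account for any value was not tested. The muscle lineage markers MYOD1, MYOG, DES and CHRNA1 summed to 354 to 699 TPM in a library. The leukocyte markers PTPRC, CD3E and LYZ had no value above 0.08 TPM, CD14 reached 0.86 and CD68 2.87 TPM, and the endothelial markers PECAM1, VWF, CDH5 and KDR summed to at most 0.45 TPM.

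The members lie in 1 cluster on the minus strand of chromosome 1 (GRCh38), with GBP7, not a member, between GBP2 and GBP4. GBP3 takes bases 89006677 to 89022870, GBP1 89052319 to 89065208, GBP2 89106132 to 89126114, GBP4 89181144 to 89198942 and GBP5 89256189 to 89272860, a span of 266 kb. 40.9 kb separate GBP1 from GBP2. Promoters (250 bases before to 50 after the start) of GBP1, GBP3 and GBP4 were read from RefSeq, build GRCh38.p14. GBP2 and GBP5 have no entry in the table used. An interferon-stimulated response element, searched on both strands as GAAA, any 2 bases and GAAA, was found in each of these 3 promoters and in 3.57% of all 35116 promoters. It was also in 53.4% of the 73 promoters read for the interferon-stimulated genes described further on and in 0 of the 2 read for GBP6 and GBP7. The 30 bases around each match are shown to set the members beside each other, with the match in capitals, 5′ to 3′ along the gene:
GBP1 chr1:89065316-89065345 (minus strand): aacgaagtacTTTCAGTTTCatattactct
GBP3 chr1:89022845-89022874 (minus strand): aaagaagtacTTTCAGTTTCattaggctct
GBP4 chr1:89198927-89198956 (minus strand): gtgcatgtccTTTCAATTTCggttctcaca
The match lies 127 to 118 bases before the start of GBP1, at bases 3 to 12 after the start of GBP3 and from base -4 to base 6 around that of GBP4. Along 144 aligned bases the promoters of GBP1 and GBP3 were 81.2% identical. A gamma-activated site, searched as TTCNNNGAA, was found 15 to 7 bases before the start of GBP3 (TTCCTTGAA) and in 7.66% of all promoters, and not in the windows of GBP1 and GBP4. These are matches of letters and not shown to be sites in use.

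GBP2 was the member that was higher after SKP2 depletion in both lines. It had 1.82 TPM in RD shSCR, 6.39 TPM in RD shSKP2, 2.99 TPM in JR1 shSCR and 6.04 TPM in JR1 shSKP2. Both control libraries lay below both knockdown libraries, and the knockdown levels of the lines were close to each other. The ratio of its TPM was 3.51 in RD and 2.02 in JR1. On the log2 scale it rose by 1.39 in RD, and its change of 0.82 in JR1 stayed short of the limit. Counted from the median of the tested genes, GBP2 changed by 1.66 and 1.03, and without the short structural RNAs by 2.01 and 1.19, so the call in JR1 depends on the scaling. Of all tested genes 1.08% rose in RD and 1.78% in JR1, and 24.6% and 30.9% had a change above 0, while 75% and 68.9% had one below 0. GBP2 stood at place 70 in RD and at place 360 in JR1 among the 12985 changes, from the top, and 35 other genes had changes at least as large as those of GBP2 in both lines. As the contrast that chose GBP2, these ranks are a description.

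**Figure D1:**
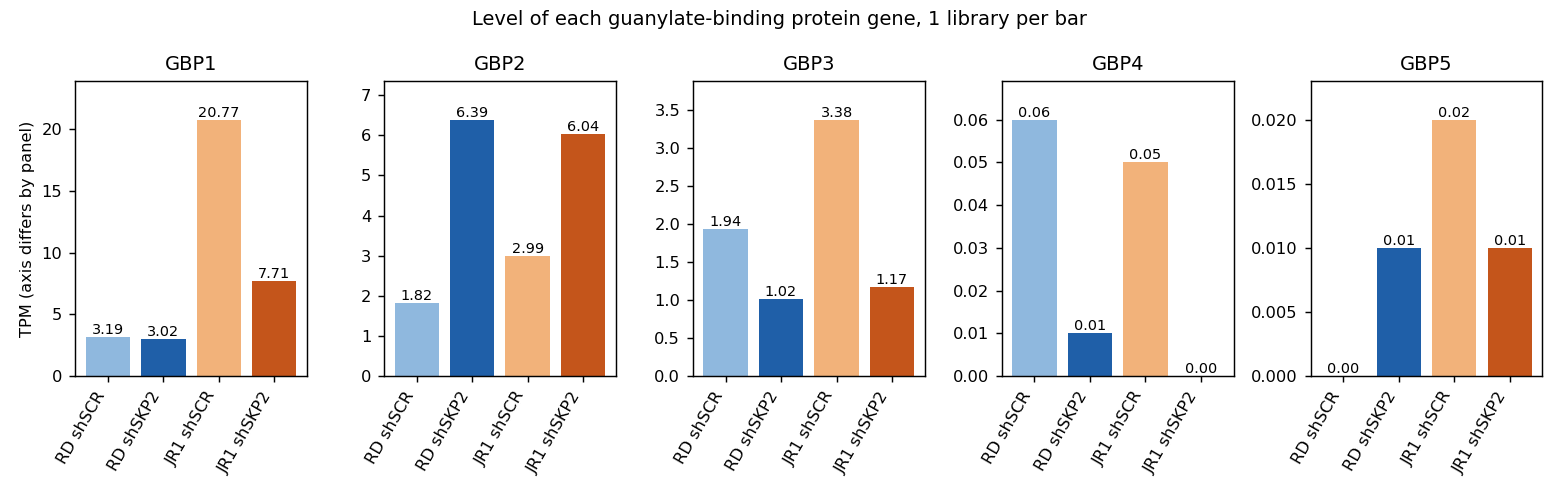
TPM of GBP1 to GBP5 in the 4 libraries, 1 bar per library with no error bar, and a y axis of its own for each gene. GBP2 is at 6.39 and 6.04 TPM in the shSKP2 libraries against 1.82 and 2.99 TPM in shSCR, while GBP1 is highest in JR1 shSCR at 20.8 TPM and GBP4 and GBP5 stay under 0.1 TPM.

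GBP1, the member that senses lipopolysaccharide, moved in JR1 and hardly in RD. It had 3.19 TPM in RD shSCR, 3.02 TPM in RD shSKP2, 20.8 TPM in JR1 shSCR and 7.71 TPM in JR1 shSKP2. JR1 shSCR stood apart as the highest value of any member in any library. GBP1 fell in JR1, with a log2 change of -1.32, and was at -0.06 in RD. The direction in RD turned with the scaling, to 0.21 when counted from the median of the tested genes and to 0.31 without the short structural RNAs, while JR1 was at -1.11 and -1.14 in these settings.

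GBP3, the closest relative of GBP1, was lower with shSKP2 in each line. It had 1.94 TPM in RD shSCR, 1.02 TPM in RD shSKP2, 3.38 TPM in JR1 shSCR and 1.17 TPM in JR1 shSKP2. Both control values lay above both knockdown values, the reverse of GBP2. GBP3 was at -0.54 on the log2 scale in RD and fell in JR1, with a log2 change of -1.01. Counted from the median of the tested genes these values were -0.27 and -0.80, no longer past the limit in JR1, and without the short structural RNAs they were -0.40 and -1.09. Of all tested genes 7.37% fell in RD and 9.05% in JR1, and 0 and 2 of the 3 tested members did.

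GBP4 and GBP5 were near 0 in every library and were not tested. GBP4 had 0.06 TPM in RD shSCR, 0.01 TPM in RD shSKP2, 0.05 TPM in JR1 shSCR and was listed at 0 in JR1 shSKP2. GBP5 was listed at 0 in RD shSCR and had 0.01 TPM in RD shSKP2, 0.02 TPM in JR1 shSCR and 0.01 TPM in JR1 shSKP2. Differences of this size are a few steps of the rounding and cannot be read as changes. Of the rest of the family, GBP6 and GBP7 were listed at 0 in all 4 libraries, and the pseudogene GBP1P1 had at most 0.14 TPM, in JR1 shSCR.

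The make-up of the family within a library does not depend on the total that TPM are scaled to. Of the summed TPM of the members, GBP2 made up 26.0% with shSCR and 61.1% with shSKP2 for RD, and 11.0% with shSCR and 40.5% with shSKP2 for JR1. GBP1 was the largest part in both control libraries, at 45.5% in RD and 76.3% in JR1, and it remained so in JR1 shSKP2 at 51.6%. In RD shSKP2 GBP2 was the largest part and GBP1 had 28.9%. The ratio of GBP2 to GBP1 went from 0.571 to 2.12 in RD, 3.71 times higher, and from 0.144 to 0.783 in JR1, 5.44 times higher. The ratio of GBP2 to GBP3 went from 0.938 to 6.26 in RD and from 0.885 to 5.16 in JR1. These ratios show that the members changed unequally, not which of them stood still. For JR1 the ratio of GBP1 to GBP3 was 6.14 with shSCR and 6.59 with shSKP2, against 1.64 and 2.96 for RD.

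**Figure D2:**
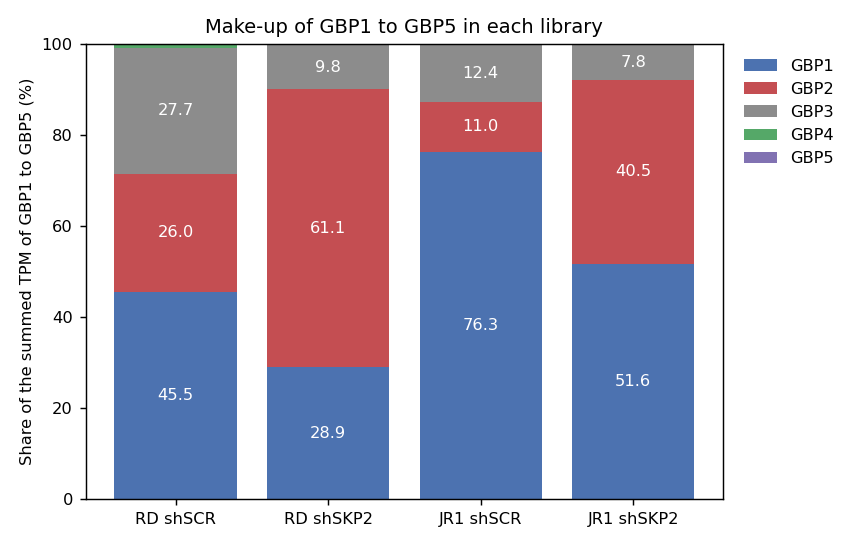
Share in percent of each member in the summed TPM of GBP1 to GBP5, 1 stacked bar per library. The GBP2 part grows from 26.0% to 61.1% in RD and from 11.0% to 40.5% in JR1, and the parts of GBP4 and GBP5 are too thin to see or nearly so.

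Summed over the members, the family went in opposite directions in the lines. The sum was 7.01 TPM in RD shSCR and 10.4 TPM in RD shSKP2, a ratio of 1.49, and 27.2 TPM in JR1 shSCR and 14.9 TPM in JR1 shSKP2, a ratio of 0.549. Without the short structural RNAs these ratios were 2.0 and 0.659. In TPM as deposited the gain in RD is that of GBP2, since GBP1 and GBP3 had lower TPM there. Without the short structural RNAs GBP1 was also higher in RD, at 7.71 TPM in shSCR and 9.77 TPM in shSKP2. The loss in JR1 is that of GBP1 and GBP3.

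The control libraries of the lines were compared next. GBP1 was 6.51 times higher in JR1 shSCR than in RD shSCR, a difference of 2.38 on the log2 (TPM + 1) scale, and it was the only tested member past the limit of 1. Of all tested genes 3.45% were higher in JR1 by this limit and 6.5% were lower. GBP2 differed by 0.50 and GBP3 by 0.58 on the same scale, both with the higher value in JR1. With shSKP2 the differences were 1.12 for GBP1, -0.07 for GBP2 and 0.10 for GBP3, where 2.7% of all tested genes were higher in JR1 by the limit and 5.39% were lower. In each line GBP1 had the highest level in shSCR. GBP2 and GBP3 followed with levels close to each other, 1.82 and 1.94 TPM in RD and 2.99 and 3.38 TPM in JR1, and with 1 library each their order cannot be told. In shSKP2 GBP3 was the lowest of the 3.

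Reads of related genes can be exchanged when TPM are estimated, so the transcripts were compared (GENCODE release 44, canonical transcripts). The coding sequences of GBP1 and GBP3 were 91.6% identical, those of GBP1 and GBP2 82.4% and those of GBP2 and GBP3 82.9%, while GBP4 shared 68.0% to 68.7% with the others and GBP5 75.1% to 77.9% with GBP1, GBP2 and GBP3. No window of 150 bases, the read length, of any member occurred in a transcript of another GBP gene. Of windows of 50 bases, 14.0% of those of GBP1, 4.18% of those of GBP3 and 1.66% of those of GBP2 did. GBP1 shared most of its 398 such windows with the pseudogene GBP1P1 and 93 with GBP3. GBP2 shared 32 of its 4039 windows with GBP1 and 8 with GBP3. Inside GBP2 the files also list LOC112268267, at 0.14 TPM in RD shSCR, 0.66 TPM in RD shSKP2, 0.36 TPM in JR1 shSCR and 0.45 TPM in JR1 shSKP2, and whether reads were shared between these overlapping genes was not tested.

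GBP2 was chosen because it stood apart from the interferon-stimulated genes, so its place beside them is a description. A list of 67 such genes, written from general knowledge and holding no GBP gene, had 62 tested members. 32 of them fell in RD and 47 in JR1, where 7.37% and 9.05% of all tested genes fell. 0 rose in either line, near the 1.08% and 1.78% of all tested genes that did. The median change of the 62 was -1.16 in RD and -1.56 in JR1, against -0.27 and -0.21 for all tested genes. OASL, a relative of the oligoadenylate synthetases, had the lowest, -5.75 and -5.14. SP110, a nuclear body protein, had the top value of the list in each line, 0.11 and -0.22. 0 of the 62 were above 0 in both lines, where 17% of all tested genes were, and without the short structural RNAs SP110 alone was. The list was written with results of these libraries known and is no independent evidence of its direction. RNA of 1 library cannot tell fewer cells that express a gene from less RNA per cell.

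Genes known as targets of interferon gamma, the class to which the GBP genes belong, had mostly lower TPM as well. Of 26 genes, 18 were tested, of which 5 fell in RD and 10 in JR1, where 7.37% and 9.05% of all tested genes fell. 0 rose, near the 1.08% and 1.78% of all tested genes that did. Counted from the median of the tested genes 1 fell in RD and 6 in JR1, a setting in which the share of all genes was not computed. Without the short structural RNAs 2 and 8 did. In that setting 15191 genes had a mean of at least 1 TPM, and 3.45% and 7.48% of them fell. The median change was -0.65 in RD and -1.08 in JR1. Of the 18, 17 had a change below 0 in RD and 18 in JR1, where 75% and 68.9% of all tested genes did. Without the short structural RNAs 6 of the 18 were above 0 in RD and 0 in JR1, so the direction in RD depends in part on the scaling. APOL6, an apolipoprotein L, was the lowest in each line, from 11.2 to 2.62 TPM in the RD pair and from 11.5 to 2.30 TPM in the JR1 pair. TAP1, a subunit of the peptide transporter for antigen presentation, resembled GBP1, with 14.1 and 14.0 TPM in RD and 24.7 and 10.9 TPM in JR1. CD274, which encodes the checkpoint ligand PD-L1, was the highest, with changes of 0.19 in RD and -0.14 in JR1. The chemokines CXCL9 and CXCL11 were listed at 0 in every library.

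The genes that carry the interferon gamma signal were read by role. The ligand IFNG was listed at 0 in all 4 libraries. Of the receptor chains, IFNGR1 had 7.23 and 6.19 TPM in RD and 6.45 and 6.52 TPM in JR1, shSCR before shSKP2, and IFNGR2 fell in RD, from 13.8 to 5.43 TPM, and went from 15.5 to 7.70 TPM in JR1. The log2 change of IFNGR2 in RD was -1.20, but -0.93 from the median of the tested genes and -0.88 without the short structural RNAs, both short of the limit. The kinase JAK1 changed by -0.38 in RD and -0.60 in JR1, and JAK2 by -0.03 and -0.13. Without the short structural RNAs JAK1 was at 0.03 and -0.35 and JAK2 at 0.31 and 0.04, so some of these directions turn with the scaling. IRF1 had 8.28 and 3.77 TPM in RD (log2 change -0.96) and fell from 13.4 to 3.90 TPM in JR1 (log2 change -1.56). IRF1 had lower TPM with shSKP2 in each line, where 75% and 68.9% of all tested genes had a change below 0. Whether IRF1 bears on the level of GBP2 was not tested. IRF2, which can oppose IRF1, was at 0.20 and 0.06, and the inhibitor SOCS1 at -0.61 and -0.48. Of the 9 tested genes of this list 1 fell in RD and 2 in JR1, and 0 rose, where 7.37% and 9.05% of all tested genes fell and 1.08% and 1.78% rose, so the count in RD and the lack of rises are near the background.

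Of the other interferons only IFNB1 and IFNL1 were read, and both were low. IFNB1 had no value above 0.08 TPM, and IFNL1 had 1.11 and 2.35 TPM in shSCR of RD and JR1 and 0.08 TPM and 0 in shSKP2. STAT2 fell from 39.6 to 13.9 TPM in the RD pair and from 58.0 to 16.6 TPM in the JR1 pair, and IRF9, its partner, had changes of -0.94 and -1.52. The receptor chains IFNAR1 and IFNAR2 had changes of -0.10 and 0.04 in RD and of 0.30 and 0.20 in JR1. Over the 92 tested genes of the 4 interferon lists the highest change was that of IRF2 in RD, 0.20, and that of PTPN2, a phosphatase of JAK proteins, in JR1, 0.32. The change of GBP2 lay 1.19 above the first and 0.50 above the second. As GBP2 was chosen on this contrast, these gaps are a description.

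**Figure D3:**
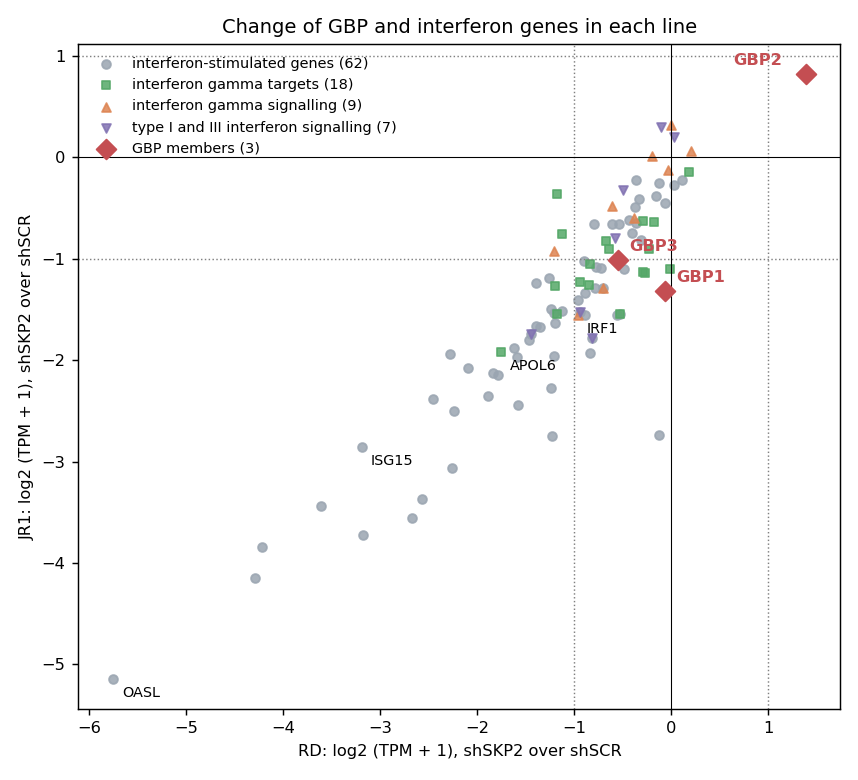
Log2 change of TPM + 1 (shSKP2 over shSCR) in RD on the x axis and in JR1 on the y axis, 1 point for each tested gene of the GBP and 4 interferon lists, with dotted lines at the limit of 1 in each direction. Of the genes drawn, GBP2 alone lies past 1 in RD, at 1.39 and 0.82, while OASL lies at -5.75 and -5.14 and GBP1 and GBP3 lie among the interferon genes in JR1.

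Genes with which the GBP proteins work were also read. Caspase-4, which the GBP1 coat activates, went from 17.6 to 10.9 TPM in the RD pair and from 19.0 to 12.1 TPM in the JR1 pair. GSDMD, the pore-forming protein that caspase-4 cuts, fell from 7.75 to 1.91 TPM in the RD pair and from 7.40 to 2.13 TPM in the JR1 pair. PIM1, a kinase that holds GBP1 inactive, was at -0.99 in RD and fell by 1.78 on the log2 scale in JR1. FURIN, the protease restrained by GBP2 and GBP5, was at -0.39 and -0.51. Without the short structural RNAs FURIN was at 0.01 in RD and -0.26 in JR1, and caspase-4 at -0.26 and -0.38. The enzymes of the lipid anchor stayed short of the limit: PGGT1B, the subunit of the geranylgeranyl transferase that acts on GBP2, had 5.57 and 5.53 TPM in RD and 4.70 and 6.40 TPM in JR1, and FNTB, the subunit of the farnesyl transferase that acts on GBP1, had changes of -0.67 and -0.35. RCE1, which trims anchored proteins, was the highest of this list at 0.19 and 0.50. NLRP3, AIM2 and CASP1 had no value above 0.12 TPM. Of the 10 tested genes of the list 1 fell in RD, near the 7.37% of all tested genes, and 3 in JR1, against 9.05%. 0 rose, near the 1.08% and 1.78% of all tested genes that did.

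No other tested gene near GBP2 on the chromosome rose in either line. Of all tested genes 1.08% rose in RD and 1.78% in JR1, so this lack of rises is near the background. Within 1000 kb of GBP2 on either side the files list 33 genes, of which 12 were tested, and GBP2 alone rose in RD. LOC112268267, inside GBP2 and too low to be tested, had higher TPM with shSKP2 in each line, as given above. GBP1, next to it, and GBP3 behaved as given above. Toward lower coordinates KYAT3, an aminotransferase, was at -0.53 in RD and -0.82 in JR1, RBMXL1 at -0.20 and -0.49, GTF2B, a general transcription factor, at 0.01 and 0.12 and PKN2, a protein kinase, at -0.41 and 0.01. On the far side of GBP6, LRRC8B was at -0.02 in each line and LRRC8C at -0.12 and -0.21. LRRC8D, like these a subunit of volume-regulated anion channels, fell from 23.3 to 6.50 TPM in the RD pair and from 26.7 to 6.72 TPM in the JR1 pair.

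**Figure D4:**
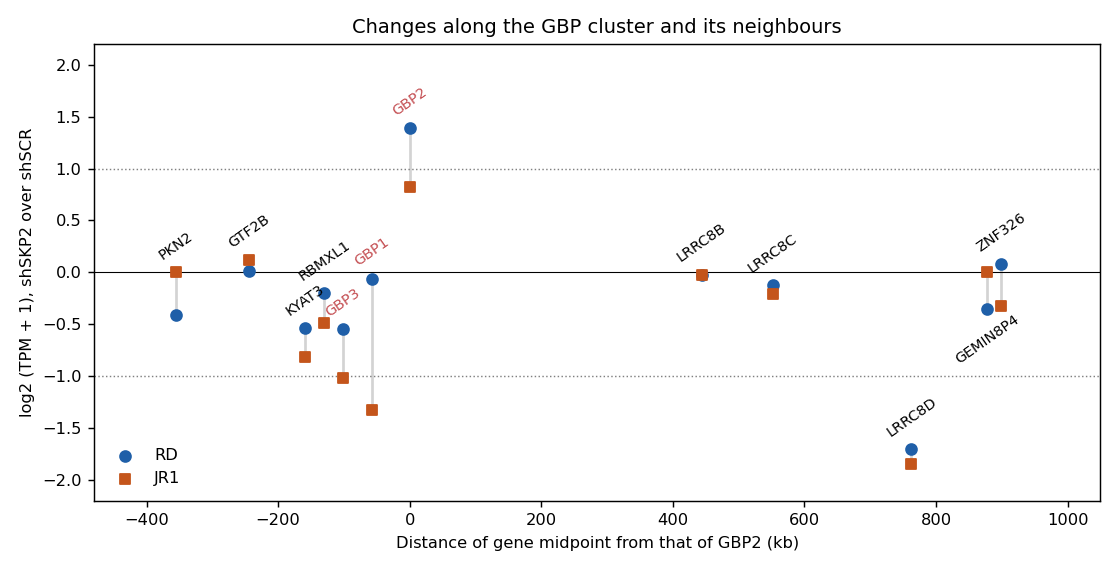
Log2 change of TPM + 1 (shSKP2 over shSCR) of the 12 tested genes within 1000 kb of GBP2, against the distance of gene midpoints in kb, with circles for RD and squares for JR1 joined by a line per gene. GBP2 (1.39 and 0.82) stands above its neighbours GBP1 and GBP3, and LRRC8D is the lowest at -1.70 and -1.84.

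Over the 4 libraries the genes with a pattern most like that of GBP2 were CDKN1A, ENHO, IPPK, KDM6B and PCDHB3. Likeness was the Euclidean distance of log2 (TPM + 1), each gene centred on its own mean, and 12982 genes were compared. CDKN1A, which encodes the CDK inhibitor p21, was the nearest at a distance of 0.204, and went from 90.3 to 201 TPM in the RD pair and from 111 to 191 TPM in the JR1 pair. ENHO, which encodes the peptide adropin, went from 0.460 to 2.17 TPM in the RD pair and from 0.700 to 2.14 TPM in the JR1 pair. IPPK, an inositol phosphate kinase, went from 4.38 to 10.7 TPM in the RD pair and from 6.65 to 12.2 TPM in the JR1 pair. KDM6B, a histone demethylase, went from 13.2 to 28.4 TPM in the RD pair and from 14.9 to 30.4 TPM in the JR1 pair. PCDHB3, a protocadherin, was at a distance of 0.324. With 4 libraries, and genes chosen for likeness to GBP2, itself chosen for higher TPM in each line, this is a description of shape.

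**Figure D5:**
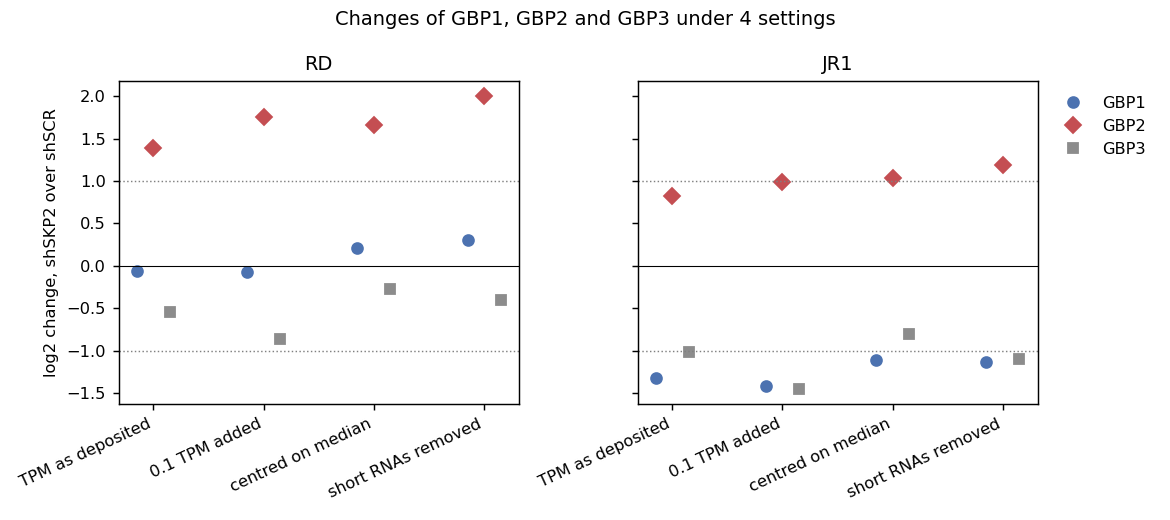
Log2 change of GBP1, GBP2 and GBP3 (shSKP2 over shSCR) in RD on the left and JR1 on the right, under 4 settings on the x axis, with dotted lines at the limit of 1. GBP2 lies between 1.39 and 2.01 in RD and between 0.82 and 1.19 in JR1, and GBP1 in RD lies between -0.08 and 0.31.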

How the data were processed

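The 4 poly-A selected, directional libraries were read as pairs of 150 bases. The authors used STAR 2.7.9a for alignment to GRCh38 and deposited TPM per gene from RSEM 1.3.2 (tools per the submitters' processing notes), which sum to the same total in each library and were used as deposited. TPM hold no counts, so neither depth nor counting error can be given. The added 1 TPM, the mean of at least 1 TPM and the limit of 1 on the log2 scale are settings of this work and not of the study. With 1 library per group nothing was tested within a line. A fit over both lines with line as a block was not run, since GBP2 was chosen on that contrast. Alternatives were 0.1 TPM added in place of 1, centring on the median of tested genes, removal of 3064 short structural RNA genes by symbol with rescaling, no minimum, a minimum of 5 TPM and a limit of 1.5-fold. The members and all gene lists were chosen with earlier results of these data known. Named were all GBP genes, SKP2, the highest and lowest of each list, signalling, partner and neighbour genes by role, and the 5 genes nearest to GBP2. TAP1, LOC112268267 and the levels of CXCL9 and CXCL11 were added after values were seen. Some genes are not reported here. RIGI was matched as DDX58. Calls were run on simulated data as a check of the code only. It does not show how sure the calls of GBP2 and GBP3 are at their low levels. Python 3.11.15, numpy 2.4.6, pandas 2.3.3, Biopython 1.88 and matplotlib 3.10.9 were used.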

Additional observations from a re-analysis of the deposited data

Results flagged for a closer look

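These values had opposite signs in RD and JR1; with 1 library per condition the differences were not tested, and most are small. The summed TPM of GBP1 to GBP5 changed by 0.52 (RD) and -0.82 (JR1) on the log2 scale, which differ by 1.34. The next in size was DES, which encodes the muscle filament desmin, at 0.14 and -0.50, a difference of 0.64. PKN2 (-0.41 and 0.01) and ZNF326 (0.08 and -0.33), neighbours of the cluster, differed by -0.42 and 0.41. IFNAR1 (-0.10 and 0.30), PGGT1B (-0.01 and 0.38), PTPN2 (just under 0 and 0.32) and IFNGR1 (-0.19 and 0.01) differed by -0.40, -0.39, -0.32 and -0.21. SP110 (0.11 and -0.22), CD274 (0.19 and -0.14) and IFI16 (0.03 and -0.27) differed by 0.33, 0.33 and 0.30. GBP5, at 0.02 TPM or less in every library, was at 0.01 and -0.01, a difference of 0.029.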

How the results depend on the processing

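A paired fit over both lines, with line as a block, would leave 1 residual degree of freedom and was not run, since GBP2 was chosen on that contrast. GBP2 was higher in shSKP2 in the 4 settings in which its change was computed: the change in RD was 1.76 with 0.1 TPM added, 1.66 after centring and 2.01 after removal of short structural RNA genes, and in JR1 0.99, 1.03 and 1.19. In JR1, 1 member, GBP2, counted as higher after centring, after removal and with a limit of 1.5-fold, against 0, and 1 as lower in place of 2 after centring and with a minimum of 5 TPM, which left 0 higher in RD. Interferon gamma targets that fell numbered 1 after centring, 2 after removal and 10 with the 1.5-fold limit in RD, against 5, and 6 after centring and 16 with that limit in JR1, against 10. After removal 4.39% of all genes at or above the minimum were higher by the limit in RD and 4.89% in JR1. Lower by it were 3.45% and 7.48%. Such shares were not computed for the other alternatives, so those counts have no background to be set against. The median of the interferon-stimulated list was -1.25, -0.89, -0.67, -0.94 and -1.08 in RD and -1.80, -1.34, -1.52, -1.54 and -1.54 in JR1 with 0.1 TPM, centring, removal, no minimum and a minimum of 5 TPM. The summed level of the members in JR1 over RD shSCR was 1.82 on the log2 scale and 1.94, 2.05 and 2.2 in the first 3 of these. After removal, 56.0% of the genes past the limit in RD and 39.5% in JR1 were higher, against 12.8% and 16.4% as deposited. The causes were not tested, and depth limits cannot be given.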

Other observations

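Other genes of GTPase families related to the GBP family did not move as one. MX2, an antiviral dynamin-like GTPase induced by interferon, fell from 1.65 to 0.16 TPM in the RD pair and from 2.22 to 0.04 TPM in the JR1 pair. ATL3, an atlastin that fuses tubules of the endoplasmic reticulum, fell from 14.6 to 5.55 TPM in the RD pair and from 9.14 to 3.71 TPM in the JR1 pair, while ATL2 had changes of -0.20 and -0.19. Counted from the median of the tested genes ATL3 was at -0.98 and -0.89 and MX2 at -0.92 in RD, and without the short structural RNAs ATL3 was at -0.94 and -0.98, all short of the limit. IRGQ, of the immunity-related GTPase family, was higher, from 19.3 to 28.4 TPM in the RD pair and from 16.8 to 26.5 TPM in the JR1 pair. Its changes of 0.53 and 0.62 miss the limit. IRGM was listed at 0 in every library.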
